A study of Homo sapiens with 8 samples.

Results

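CHCHD6 and COQ8A are nuclear genes for mitochondrial proteins, and the RNA of both gave peaks in eCLIP of the RNA-binding protein RBPMS in human embryonic stem cells. The members are the peaks on the plus strand within hg19 chromosome 3, 126423 to 126680 kb, for CHCHD6 (gene ID 84303, also MIC25) and chromosome 1, 227127 to 227176 kb, for COQ8A (gene ID 56997, also ADCK3). These 2 windows held 210 of the 194003 listed peaks, 104 in CHCHD6 and 106 in COQ8A. The genes were selected on the log2 fold over input and the −log10 p of their peaks, so these values are given as a description and no test was made on them.

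CHCHD6 is a subunit of the MICOS complex of the inner mitochondrial membrane, which shapes the crista junctions, where cristae open to the space below the outer membrane. It works beside the core subunit MIC60 (gene IMMT) and the related CHCHD3. COQ8A is an atypical kinase-like protein of the mitochondrial matrix that is needed for making coenzyme Q, the lipid electron carrier of the respiratory chain. Inherited loss of COQ8A causes a cerebellar ataxia with coenzyme Q deficiency. RBPMS holds an RNA recognition motif and is known to bind RNA with paired CAC triplets. eCLIP fixes protein to RNA with ultraviolet light, pulls the protein down and sequences the RNA attached to it.

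The cells were HUES6, an established line, labelled wild type and control, grown in FTDA medium and irradiated at 400 mJ/cm2 in dishes of about 20M cells. The 4 RBPMS eCLIP libraries used an antibody against RBPMS, and the 4 input libraries used none; genotype, line and medium were shared by all. Nothing in the labels ties libraries to separate cultures, so the spread between them may be technical. Description codes place libraries 1 and 2 in the same set and libraries 3 and 4 in another. In cells taken in bulk, more cells with bound RNA and more bound RNA per cell cannot be told apart. A peak list holds enrichment over input and not expression, so stem cell markers were not looked up.

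Each eCLIP library had its own list, with a log2 fold over input and a −log10 p per peak, both made by the authors. The lists held 25759, 118375, 20254 and 29615 peaks in libraries 1 to 4. Over peaks paired between lists, the immunoprecipitation reads of library 3 and library 4 agree within sampling noise (chi-square test over 312 peaks, p = 0.83), with a ratio of chi-square to degrees of freedom of 0.924. For the other 5 pairs that ratio was 3.55 to 4.57. Peaks in 1 list only and those with the highest −log10 p did not enter these comparisons, so differences there were not tested. On this ratio libraries 3 and 4 were averaged and counted as 1 sample, and a mean ± SD is over n = 3 samples unless stated. At peaks paired between lists, library 2 had the most immunoprecipitation reads, 2.51 times those of library 1, while libraries 3 and 4 had 0.328 and 0.467 times those of library 2.

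A peak was taken as enriched at a log2 fold of at least 3, which is 8-fold over input, and a −log10 p of at least 3. In CHCHD6 the enriched peaks numbered 10 of 11 listed, 23 of 61, 8 of 12 and 13 of 20 in libraries 1 to 4. In COQ8A they numbered 13 of 17, 16 of 53, 13 of 19 and 16 of 17. Over all listed peaks the share enriched was 15.9%, 5.38%, 12.6% and 12.7% in libraries 1 to 4. The contrast is the one on which the genes were picked, so nothing is read from the gap. Both genes had a mean of 14.5 enriched peaks per sample, with an SD of 7.37 in CHCHD6 and 1.5 in COQ8A. Library 2 listed the most peaks in both genes, and 38 of its peaks in CHCHD6 and 37 in COQ8A were not enriched. Every listed peak of both genes had a log2 fold above 0. By the read numbers worked back below, equal immunoprecipitation and input reads already give a log2 fold of 1.67, 0.06, 1.09 and 0.54 in libraries 1 to 4. On the minus strand of the 2 windows, no library listed a peak. How often peaks of the whole series lie above 0, or face listed peaks on the other strand, was not worked out.

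The enriched peaks of CHCHD6 all lay in 1 short stretch deep inside the gene. From chromosome 3, 126576871 to 126584554, the stretch measured 7684 bases, or 2.99% of the 257 kb window, and lay 153.9 to 161.6 kb from the start of the window. Merging enriched peaks that shared at least 1 base gave 18 regions in the stretch, which covered 2458 bases together. Enriched peaks of at least 3 of the 4 libraries were found in 8 of the 18 regions, and these are called recurrent below. Of all 7472 merged regions of the series, 22.7% were recurrent by that rule. The 8 recurrent regions were confined to the last 4258 bases of the stretch, from 126580297 to 126584554. RefSeq on GRCh38 lists the pseudogene RCC2P4 inside the limits of CHCHD6. Which exon or intron holds the stretch was not analysed here, since no annotation on hg19 was used.

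**Figure D1:**
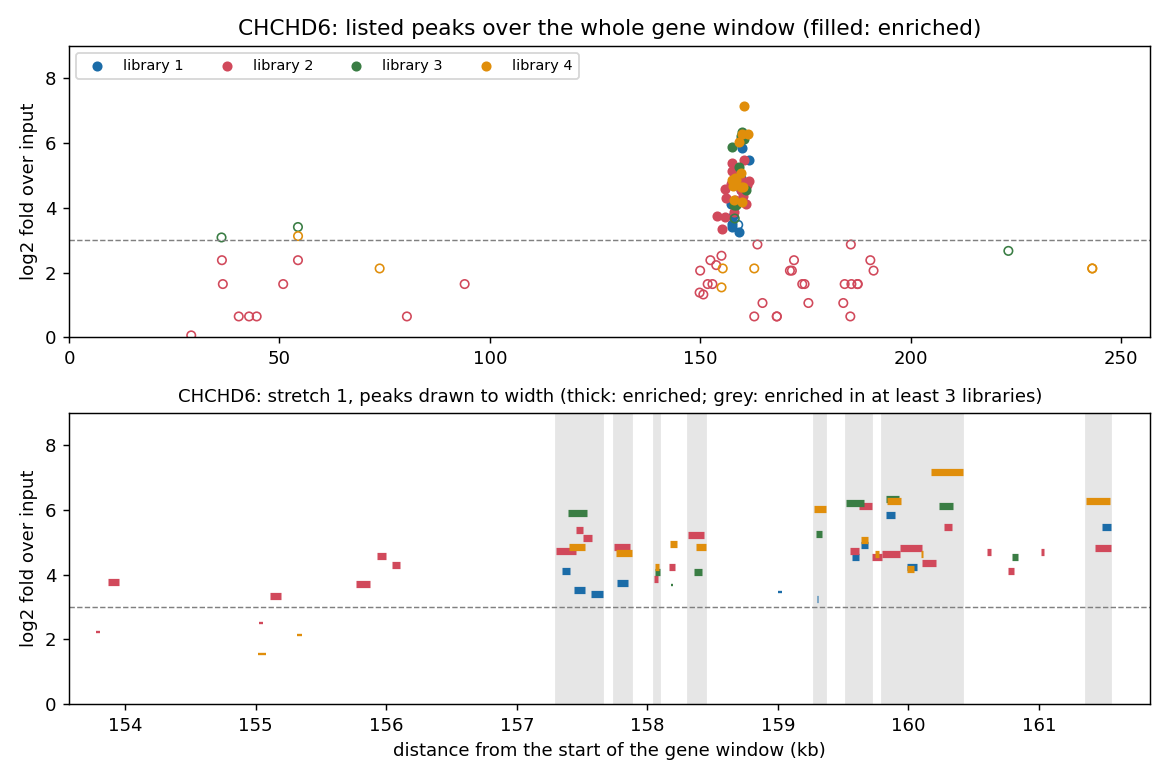
Peaks of CHCHD6 by distance from the start of the gene window (kb) and log2 fold over input, coloured by library; the dashed line marks a log2 fold of 3. The upper panel shows every listed peak, filled where enriched, and the lower panel shows the 7684-base stretch that holds all enriched peaks, with the 8 recurrent regions shaded in grey.

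The region with the highest fold in CHCHD6 lay at 159.8 kb from the window start, chromosome 3, 126582800 to 126583417, 618 bases wide. Its highest log2 fold was 5.84, 5.49, 6.33 and 7.16 in libraries 1 to 4, with a mean of 6.02 ± 0.65 (SD, n = 3). Libraries 2 and 4 each placed 4 enriched peaks in it and libraries 1 and 3 placed 2 each. Only 64 of its bases, from 126582832 to 126582895, were covered by enriched peaks of all 4 libraries. The peaks over those bases had log2 folds of 5.84, 4.63, 6.33 and 6.27 in libraries 1 to 4. The highest peaks of libraries 2 and 4 lay further on, at 160.3 and 160.2 kb, where library 1 listed no peak. The mean above is thus over peaks at different places in the region.

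Next to it, at 159.5 kb, the region from 126582523 to 126582717 had log2 folds of 4.91, 6.13, 6.21 and 5.07 in libraries 1 to 4, with a mean of 5.56 ± 0.61. The third region enriched in all 4 libraries began at 157.3 kb, from 126580297 to 126580656, with 4.13, 5.38, 5.89 and 4.86, a mean of 4.96 ± 0.72. Library 1 was the lowest in both. At 157.3 kb the highest peaks of libraries 1 and 2 did not overlap, so the mean there is over peaks at different places. By highest peak, the region at 159.8 kb was above that at 157.3 kb in 4 of 4 libraries. The wider region held more peaks in libraries 2, 3 and 4. On the 64 bases shared by all libraries at 159.8 kb, library 2 had 4.63, below its 5.38 at 157.3 kb. Between the regions at 159.5 kb and 159.8 kb the order by highest peak varied, since library 2 had 6.13 and 5.49, and their means differed by less than the SD.

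The 5 other recurrent regions of CHCHD6 each lacked 1 library, and in each case that library had no listed peak there at all. The region at 161.4 kb, from 126584362 to 126584554, lacked library 3 and had 5.47, 4.82 and 6.27 in libraries 1, 2 and 4, with a mean of 5.52 ± 0.73. That at 157.7 kb, from 126580741 to 126580881, also lacked library 3 and had lower folds of 3.75, 4.87 and 4.67. The regions at 158.0 kb (126581048 to 126581098) and 158.3 kb (126581314 to 126581448) lacked library 1. The region at 158.0 kb had the lowest mean of the 8, with 3.87, 4.09 and 4.24 in libraries 2, 3 and 4, and at 158.3 kb they were 5.23, 4.09 and 4.86. The region at 159.3 kb, from 126582280 to 126582365, lacked library 2 and varied most, with 3.25 in library 1, 5.26 in library 3 and 6.03 in library 4. Here the peak of library 1 was 5 bases wide, so only 5 bases were shared by all 3 libraries.

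The 10 remaining regions of CHCHD6 were enriched in fewer libraries. Library 2 alone held 7 of them, with log2 folds of 3.33 to 4.70, and no other library listed a peak at any of the 7. These include all 5 regions before 157 kb, so the early part of the stretch was seen enriched in library 2 only. Over the series library 2 had the most enriched peaks, 6370, against 4107, 2548 and 3749 in libraries 1, 3 and 4. The share of the series' merged regions that library 2 alone held was not worked out. A further 3 regions were shared by library 2 and either library 3 or library 4. Outside the stretch library 1 listed no peak, library 2 listed 37, library 3 listed 3 and library 4 listed 5, and 0 of them were enriched. The highest fold among those 37 was a log2 of 2.87. In libraries 3 and 4 peaks at 54.4 kb reached a log2 fold of 3.41 and 3.13, but with 5 and 6 immunoprecipitation reads over 1 input read and −log10 p of 1.83 and 1.68. No peak was listed by any library in the first 29.0 kb of the window or between 94.0 and 149.8 kb.

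In COQ8A the enriched peaks fell into 2 stretches 20095 bases apart. The first ran from chromosome 1, 227141211 to 227145177, 14.2 to 18.2 kb from the start of the 49 kb window, and held 14 regions. The second ran from 227165273 to 227166806, 38.3 to 39.8 kb from the start, and held 5. Together the 19 regions covered 2013 bases. Recurrent regions numbered 7 in the first stretch and 1 in the second, and all 7 of the first were enriched in all 4 libraries. Over the series 12.6% of merged regions were enriched in all 4. Between the stretches, from 22.1 to 38.3 kb, no library listed a peak. RefSeq on GRCh38 lists no other gene inside COQ8A.

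**Figure D2:**
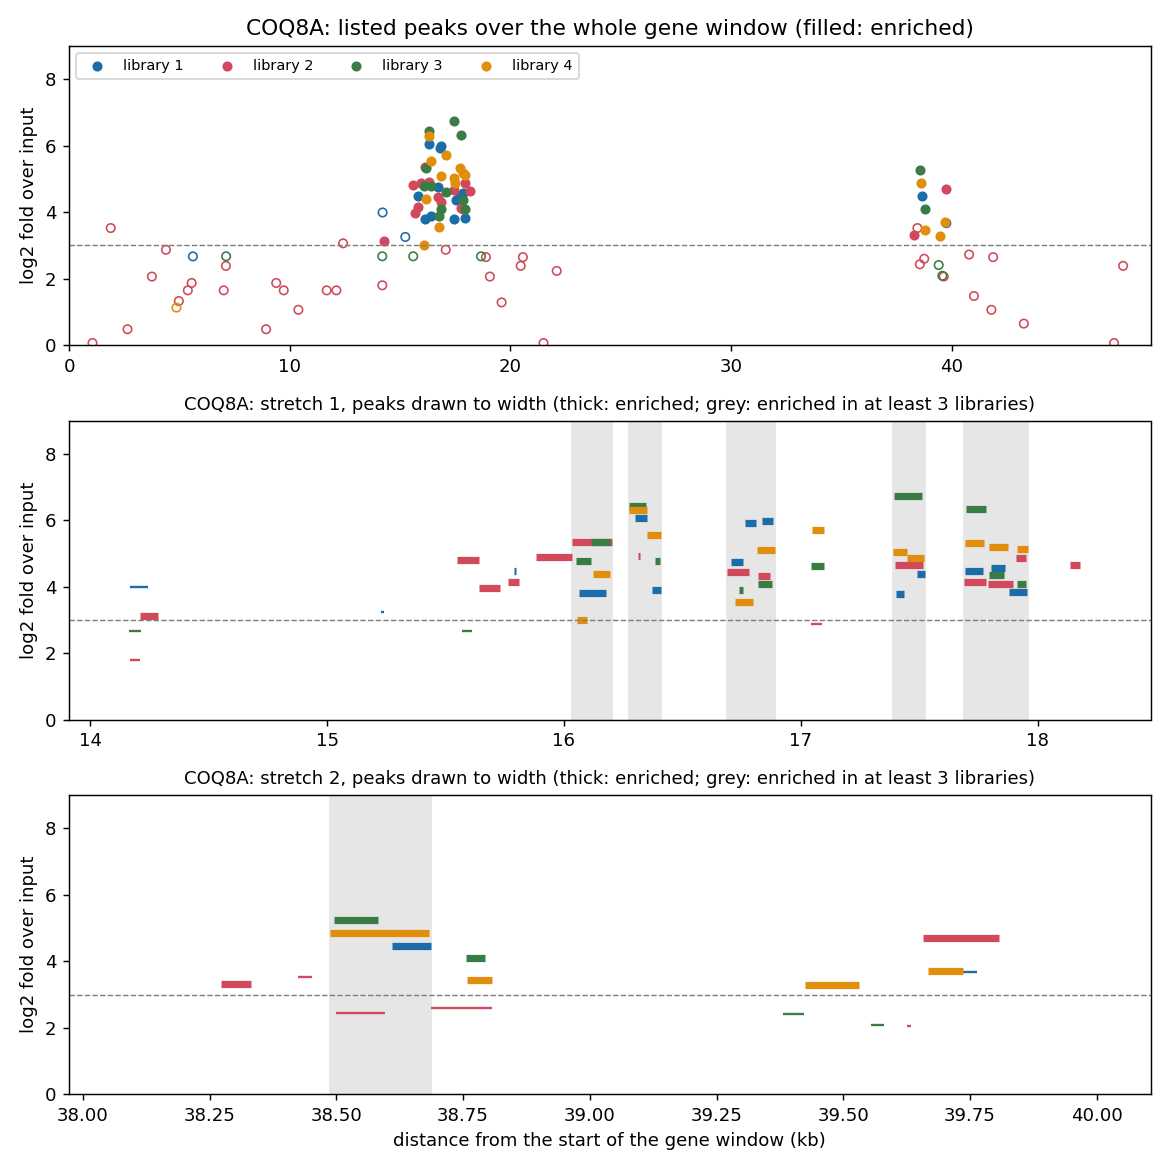
Peaks of COQ8A by distance from the start of the gene window (kb) and log2 fold over input, coloured by library; the dashed line marks a log2 fold of 3. The upper panel shows every listed peak, filled where enriched, and the lower panels show the 2 stretches that hold all enriched peaks, with 7 recurrent regions (grey) in the first and 1 in the second.

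The 7 regions enriched in all 4 libraries lay within 1925 bases, from 227143033 to 227144957. The highest was at 16.3 kb, 227143274 to 227143410, with log2 folds of 6.06, 4.92, 6.44 and 6.30 in libraries 1 to 4 and a mean of 5.78 ± 0.76 (SD, n = 3). Library 2 stood lowest there, with a peak 7 bases wide that set the 7 bases common to all 4 libraries. At 16.03 kb, 227143033 to 227143202, the order was different, with 3.80, 5.36, 5.33 and 4.38, a mean of 4.67 ± 0.80.

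A neighbouring pair followed at 16.7 kb (227143688 to 227143810) and 16.8 kb (227143816 to 227143892). Library 1 was the highest in both, with 5.91 and 5.99, while libraries 2, 3 and 4 had 4.45, 3.89 and 3.54 at 16.7 kb and 4.31, 4.09 and 5.10 at 16.8 kb. The means were 4.70 ± 1.12 and 4.96 ± 0.90. At 16.7 kb the 5.91 of library 1 came from a peak at 227143764 to 227143810, which did not overlap that of library 3. Over the 19 bases common to all 4 libraries, 227143739 to 227143757, library 1 had 4.75, still the highest. The mean at 16.7 kb is thus over peaks at different places.

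Library 3 was the highest at 17.4 kb (227144391 to 227144525) and 17.7 kb (227144691 to 227144782), with 6.73 and 6.33. At 17.4 kb libraries 1, 2 and 4 had 4.37, 4.67 and 5.03, and at 17.7 kb 4.47, 4.13 and 5.32. The highest peaks of libraries 1 and 4 at 17.4 kb did not overlap. The last of the 7, at 17.8 kb (227144790 to 227144957), was the most even by highest peak, with 4.57, 4.87, 4.36 and 5.19. The mean was 4.74 ± 0.15, with the 4.36 and 5.19 of libraries 3 and 4 averaged first. The 4.87 of library 2 came from a peak at 227144910 to 227144949, away from the highest peaks of the other libraries. Its peak over those, 227144790 to 227144895, had 4.08. No order of the 7 regions held over libraries: the highest was at 16.3 kb in libraries 1 and 4, at 16.03 kb in library 2 and at 17.4 kb in library 3. The means of the other 6 ran from 4.67 to 4.97, a range smaller than the SD of 5 of them.

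In the second stretch of COQ8A the recurrent region lay at 38.5 kb, 227165488 to 227165686, with 4.47, 5.26 and 4.86 in libraries 1, 3 and 4. No base of it was covered by all 3, since the peak of library 4 overlapped both of the others and joined them. Library 2 listed a peak there with a log2 fold of 2.43 and a −log10 p of 4.34, under the fold asked for. The other 4 regions of the stretch were enriched in 1 or 2 libraries. At 39.7 kb, 227166658 to 227166806, library 2 had 4.70 and library 4 had 3.71. Mean folds of the enriched peaks were lower in the second stretch than in the first in each library, with 4.47, 4.01, 4.67 and 3.83 in libraries 1 to 4 against 4.66, 4.45, 5.04 and 4.93. Library 1 had a single enriched peak in the second stretch, library 4 had 4 and the others 2 each.

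Of the 11 regions of COQ8A that were not recurrent, library 2 alone held 6, 5 in the first stretch and 1 in the second. Among them 227142549 to 227142641 and 227142882 to 227143032 reached log2 folds of 4.82 and 4.89, and the latter ends where the recurrent region at 16.03 kb begins. How often library 2 alone held a region over the series was not worked out. The region at 17.0 kb, 227144044 to 227144096, was enriched in libraries 3 and 4, at 4.61 and 5.71, which count as 1 sample. Library 2 listed a peak there at a log2 fold of 2.87 with 28 immunoprecipitation reads over 4 input reads, the nearest below the fold asked for. The nearest above it was a peak of library 4 at 16.1 kb, with 3.002 and 22 reads over 4. At 14.2 kb, library 1 listed a peak at 3.99 that rested on 5 reads over 1 and had a −log10 p of 2.42. Outside the 2 stretches libraries 1 to 4 listed 1, 32, 2 and 1 peaks, and 0 of them were enriched.

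**Figure D3:**
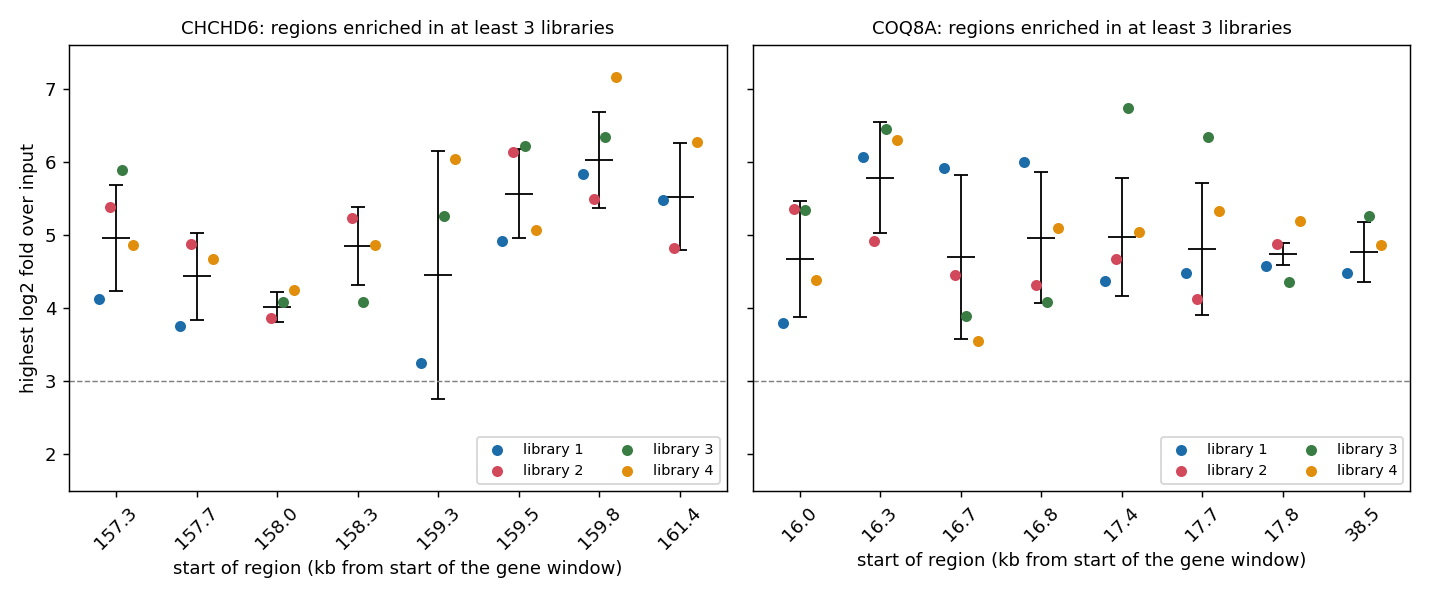
Highest log2 fold over input in each recurrent region of CHCHD6 (left) and COQ8A (right), by distance of the region from the start of the gene window; points are libraries, and the bar and whiskers are the mean and SD over samples, with libraries 3 and 4 averaged (n = 3, or n = 2 where a sample has no enriched peak). In CHCHD6 library 4 was the highest in 4 of 8 regions, and in COQ8A library 3 was the highest in 4 of 8.

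The number of reads behind each peak was worked back from its log2 fold and p. Input reads are those of the input that the authors set against the list, and which of the 4 that was is not stated. A single pair of read numbers matched for 93 of the 112 enriched peaks of the 2 genes. Immunoprecipitation reads of these ranged from 7 to 118, and input reads from 1 to 8. The medians in libraries 1 to 4 were 18, 35, 14.5 and 21 immunoprecipitation reads in CHCHD6 and 17, 50, 18 and 32 in COQ8A. Input rested on 1 read in 39 of the 93 peaks, or 41.9%, and an input of 0 cannot be told from 1 by this match. In CHCHD6 this was so for 2 of 10, 11 of 20, 6 of 6 and 6 of 9 such peaks in libraries 1 to 4. In COQ8A it was so for 5 of 13, 3 of 15, 3 of 9 and 3 of 11.

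**Figure D4:**
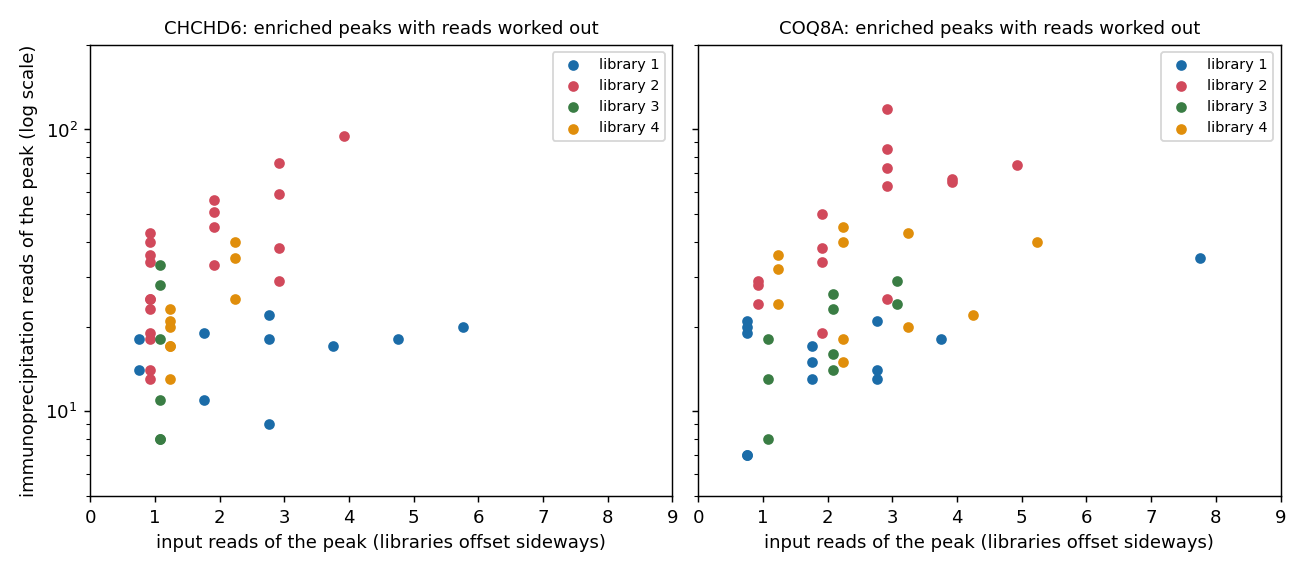
Immunoprecipitation reads (log scale) against input reads of each enriched peak whose read numbers were worked out, for CHCHD6 (left) and COQ8A (right), coloured by library. All 6 such peaks of library 3 in CHCHD6 had 1 input read, and the highest input was 8 reads, in library 1 for COQ8A.

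Few input reads leave wide limits on single folds. At 159.8 kb in CHCHD6 the peak of library 1 had 18 reads over 1, which gives a log2 fold of 5.84 with an exact 95% interval of 3.17 to 11.22. The highest peak of library 2 in that region, from 126583270 to 126583333, did not overlap it. That peak had 43 over 1, with an interval of 2.93 to 10.82. Among the highest peaks of the recurrent regions, the narrowest limits were in COQ8A at 16.03 kb, where library 1 had 35 reads over 8 and an interval of 2.66 to 5.12. In library 2 the same region had 118 reads over 3, with 3.78 to 7.66. These intervals cover counting error only, and they take reads as independent molecules, which reads from amplified libraries may not be. In both regions the intervals of libraries 1 and 2 overlap, though in CHCHD6 they belong to peaks at different places.

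The p of 25 of the 112 enriched peaks stood at the same ceiling value, which has no order, and 19 of these had more than 1 matching pair. The peak with the highest fold of both genes, of library 4 in the 159.8 kb region of CHCHD6, had at least 98 immunoprecipitation reads over 1 input read and at most 392 over 4. The peak of library 3 at 17.4 kb in COQ8A had at least 50 over 1 and at most 200 over 4. With 1 input read, the fewest immunoprecipitation reads that pass both thresholds are 7, 13, 8 and 10 for libraries 1 to 4. The weakest recurrent region, at 158.0 kb in CHCHD6, stood at or near that minimum in all 3 of its libraries, with 14, 8 and 13 reads over 1.

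The 2 genes are set side by side here without a test. In COQ8A 7 of the 8 recurrent regions were enriched in all 4 libraries and in CHCHD6 3 of 8, beside 55.3% of the 1699 recurrent regions of the series. With libraries 3 and 4 joined as 1 sample, regions enriched in all 3 samples numbered 7 in COQ8A and 5 in CHCHD6. Of the bases covered by any enriched peak, 18.4% (371 of 2013) were covered in all 4 libraries in COQ8A and 6.83% (168 of 2458) in CHCHD6. Bases covered in 1 library only made up 45.4% and 53.2%. Libraries 3 and 4 shared 751 enriched bases in COQ8A, 94.8% of those in library 3 and 61.9% of those in library 4, and 476 in CHCHD6, 69.8% and 40.3%. Libraries 1 and 2 shared 493 in COQ8A, 68.5% of those in library 1 and 35.7% of those in library 2, and 542 in CHCHD6, 86.3% and 27.6%. These shares of bases were not worked out over the whole series, so they are not read as traits of the 2 genes. The count for CHCHD6 fell from 8 to 5 recurrent regions when peaks with fewer than 13 immunoprecipitation reads were left out, and that for COQ8A fell to 7. Without library 1, and with 2 of the other 3 libraries asked for, COQ8A had 13. With at least 2 of all 4 libraries asked for, it had 12.

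The folds of both genes are set beside those of all recurrent regions. The mean log2 fold of the recurrent regions was 4.56, 5.11, 5.31 and 5.40 in libraries 1 to 4 for CHCHD6, a mean of 5.01 ± 0.41 (SD, n = 3), and 4.96, 4.67, 5.30 and 4.97 for COQ8A, a mean of 4.92 ± 0.23. For all 1699 recurrent regions it was 4.79, 4.85, 4.90 and 4.96. Each library's mean is over the regions where it had an enriched peak, so the libraries do not cover the same regions. Over the 3 regions of CHCHD6 enriched in all 4 libraries the means were 4.96, 5.67, 6.15 and 5.70. Over the 7 such regions of COQ8A they were 5.03, 4.67, 5.31 and 4.98. In both sets library 1 was the lowest in CHCHD6 and library 2 the lowest in COQ8A. The highest in CHCHD6 was library 4 over the recurrent regions and library 3 over those enriched in all 4. With the 4 libraries weighted equally, the median of the regions' means was 4.96 for CHCHD6, 4.87 for COQ8A and 4.72 for all. Median widths were 167, 136 and 168 bases.

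Both genes held several recurrent regions side by side. Recurrent regions at most 5 kb apart on 1 strand were joined into runs, of which the series held 1000, and 632 of them held a single region. CHCHD6 held a run of 8 and COQ8A a run of 7; 5 runs of the series held at least 8 regions and 13 held at least 7. Gaps between neighbouring regions ranged from 82 to 944 bases in the CHCHD6 run and from 5 to 498 in the COQ8A run. The genes were picked with such results known, so these ranks are a description.

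The runs most like that of CHCHD6 in number of regions and mean fold were 3 others, with each region's mean taken here over libraries, 3 and 4 counted singly. On chromosome 6, minus strand, 2200627 to 2202369, a run of 8 had a mean log2 fold of 4.77 ± 0.17 (SD over regions), against 5.06 ± 0.69 for CHCHD6 and 4.997 ± 0.478 for COQ8A. On chromosome 16, plus strand, 81610500 to 81611892 and 50612960 to 50614047, 2 runs of 7 had 5.14 ± 0.84 and 4.86 ± 0.45. These 3 runs were 1743, 1393 and 1088 bases long, so the CHCHD6 run, at 4258 bases and 1.88 regions per kb, was the most drawn out of the 5, and COQ8A, at 3.64 per kb, lay below the 4.59 to 6.43 of the 3. The run with the most regions, on chromosome 3, minus strand, 195505957 to 195515555, held 23 regions at 5.65 ± 0.61. That on chromosome 6, minus strand, 157731460 to 157735393, held 17 at 7.37 ± 0.47, a higher mean fold than either gene in each of the 4 libraries.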

How the data were processed

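The peak lists of 4 RBPMS eCLIP libraries were used; the inputs enter only through the authors' values, and which input library entered each list is not stated. Each deposited list gives a −log10 p and a log2 fold of immunoprecipitation over input per peak, made by the authors, and peaks were called per library, per the file layout of 1 list each. The build is hg19, per the submitters' processing notes; the aligner and peak caller are not given in those sources. Lists name called peaks only, so a missing peak is no measure of 0.

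The members, lists and thresholds were chosen with earlier results of these data known. Members were peaks overlapping the 2 windows on the plus strand, and the named regions are the recurrent ones, at most 8 per gene. Read numbers were worked back from the log2 fold and p, within a relative tolerance of 0.003. With both numbers at least 5, the chi-square test with continuity correction was taken. Otherwise an exact binomial test stood in for Fisher's exact test. Both were set against a fixed share of immunoprecipitation reads per library. On 4422 simulated peaks 98.96% to 99.9% came back, by library, and 0 were wrong; the simulation used the same tests, so it checks the working back only. Total reads per library are unknown. Libraries were compared over peaks overlapping by at least 80% with at least 40 reads in both together. Peaks at about the p ceiling or above it, and those without a single matching pair of read numbers, were left out. Python 3.11.15, pandas 2.3.3, numpy 2.4.6 and scipy 1.17.1 were used. Other genes of the MICOS complex and of coenzyme Q synthesis and base sequences of the peaks were not analysed here, since no hg19 annotation or genome was used; RefSeq (GRCh38) served for gene names, where both members matched, and for which genes lie inside the members' limits.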

Additional observations from a re-analysis of the deposited data

Results flagged for a closer look

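For the 2 genes, 26 values per library were examined for a library far from the rest, counting all 4 libraries separately, and 1 exceeded the limit of Dixon's test for 4 values. About 1.3 such cases are what chance alone gives. In COQ8A, library 2 listed 53 peaks, whereas 17, 19 and 17 were listed by libraries 1, 3 and 4, so the gap to its neighbour was 0.944 of the full range. Over the series the list of library 2 was also the longest, with 118375 peaks. Its enriched peaks in COQ8A numbered 16, as many as in library 4.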

How the results depend on the processing

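No paired analysis was possible because only eCLIP libraries have lists, and the labels do not say which input entered each. The number of recurrent regions in CHCHD6, 8, was 5 with −log10 p of at least 5, with a log2 fold of at least 4, without peaks under 13 reads, and for all 3 samples with libraries 3 and 4 joined (chosen after seeing the data); it was 3 for all 4 libraries. That in COQ8A, 8, was 13 without library 1, where 2 of the other 3 libraries were asked for. With at least 2 of all 4 libraries asked for, it was 12 in COQ8A and 11 in CHCHD6. The cause of these differences was not tested. Leaving out the libraries in turn gave 10 to 11 in CHCHD6 and 9 to 13 in COQ8A, with 2 of the other 3 libraries asked for. The mean log2 fold in CHCHD6 was 5.52 over regions enriched in all 4 libraries, and in COQ8A 4.67 with a log2 fold of at least 1, beyond 1 SD of the main value; the cause was not tested. Mean log2 folds were 4.92 to 5.05 and 4.77 to 4.90 with each library left out. Counts of enriched peaks stayed within 1.5 times of the main ones in 9 of 9 alternatives for each gene. The longest runs kept 8 and 7 regions at 2 kb and 10 kb. Pathway genes were not run under any setting. Input of 1 read limits single folds.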
